A study of Equus caballus with 4 samples.

Results

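The unfolded protein response (UPR) is the programme by which a cell answers misfolded protein in the endoplasmic reticulum (ER). The ER membrane carries the sensors PERK, IRE1 and ATF6, which activate the transcription factors ATF4, XBP1 and cleaved ATF6. These factors induce chaperones, disulfide isomerases and degradation factors, and, when stress lasts, the pro-death factor CHOP. Because PERK acts on translation, IRE1 on splicing and ATF6 by proteolysis, the mRNA levels of the sensors and factors do not read their activity directly. UPR signalling is known to be active while muscle precursor cells differentiate.

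The genes described here were 10 members of the response: HSPA5, HSP90B1, DDIT3, ATF4, ATF6, XBP1, PDIA4, DNAJB9, HERPUD1 and TRIB3. They were chosen by name, as the array's gene probes that carry exactly one of these symbols. Such probes existed for 6 of the 10 genes, out of 24998 gene names on the array, and they numbered 8 out of 43603 gene probes. The other 4 genes (HSPA5, HSP90B1, XBP1 and PDIA4) had 9 probes under other names, identified through their annotation, and these are given apart. All 17 probes were well above background in both channels on all 4 arrays, so none was lost to the filter on dim probes.

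The cells were differentiating equine satellite cells, the stem cells of skeletal muscle, on day 3 of differentiation. Treated cells received 0.125 µM gamma-oryzanol (GO, ferulic acid esters of sterols and triterpene alcohols found in rice bran) for 24 h, with 3 mM hydrogen peroxide (H2O2) during 1 h of that time. Control cells were grown without GO. The labels do not say whether the controls were given H2O2, whereas the study's methods describe them as exposed to it and given the vehicle DMSO. The labels name the semitendinosus muscle as the source. The study took muscle from young stallions and worked on the primary line it selected, so the replicates are probably cultures of that line rather than separate horses, and p-values then measure only the spread between cultures. Each of 4 arrays on 1 slide compared treated RNA (red, Cy5) with control RNA (green, Cy3). Since the dyes were not exchanged on any array, dye and treatment cannot be told apart. The description of every array gives the control RNA the same replicate label, while the series design counts separate control replicates. If one control RNA was shared, the tests leave out the spread between control cultures.

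The labelled cell type was checked against marker genes. Myogenic markers had probes for 8 of 10 genes (PAX7 and MYMK had none), and all 8 were well above background in both channels. All 8 had higher mean ratios in treated cells and 4 passed the test described below, all higher, where 9.49% of all probes were called higher. None of the 8 passed without array 1, 3 or 4 or with median centring (0 each, with 4 to 6 at an unadjusted limma p under 0.05). Their summed signal after normalisation ranged from 139664 to 154148 in the control channel and from 163716 to 193526 in the treated channel, without overlap. Fibroblast markers were also detected (3 of 4 with a probe), with summed levels from 48425 to 61006 in control and from 44499 to 56090 in treated cells, and of these 1 passed higher and 1 lower, and none without array 1, 3 or 4 or with median centring. None of 3 adipocyte and none of 4 endothelial markers was well above background on all 4 arrays, and of 3 leukocyte markers 2 were, 1 of which passed lower, with CD3E not well above background. No leukocyte marker passed when any 1 array was left out or with median centring (0 each). The summed leukocyte level ranged from 3667 to 4205 in control and from 3320 to 3790 in treated cells. The part of these shifts in the results below was not tested, and in such bulk samples a change in the share of a cell type and a change in RNA per cell cannot be told apart.

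The probes are 60 bases long, and 5 of them are shown because they place the measurement within the transcript. The first HSPA5 probe (A_69_P001892, chr25:9592046-9592105, plus strand, EquCab1) lies in coding sequence just before the end of the protein. The second HSPA5 probe (A_69_P001891, chr25:9592124-9592183, plus strand) starts at the last codons. Only its first 17 bases are shown, and the capitals mark the codons of the KDEL signal that returns the chaperone to the ER. In the ATF4 probe (chr28:36209673-36209732, plus strand) the capitals mark codons of the DNA-binding basic region of the leucine zipper factor. In the DDIT3 probe (chr6:72061698-72061757, minus strand) they mark the stop codon. In PDIA4 probe A_69_P106316 (minus strand), whose 60 bases span 2766 bases of chromosome 4 and therefore cross an intron, they mark the codons of a CGHC active site of the isomerase.
HSPA5 A_69_P001892: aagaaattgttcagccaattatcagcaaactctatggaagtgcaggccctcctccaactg
HSPA5 A_69_P001891: acAAAGATGAGTTGtag
ATF4 A_69_P021466: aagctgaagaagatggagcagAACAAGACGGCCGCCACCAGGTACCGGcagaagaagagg
DDIT3 A_69_P054291: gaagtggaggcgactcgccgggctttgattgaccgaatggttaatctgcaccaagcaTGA
PDIA4 A_69_P106316: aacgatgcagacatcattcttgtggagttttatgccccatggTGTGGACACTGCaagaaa

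Scanned values are fluorescence intensities before any correction. Other values are log2 ratios of treated over control signal after loess, with the SD over the 4 arrays (n = 4) and the limma p-value adjusted by Benjamini-Hochberg over the 24230 probes tested. A call means an adjusted p under 0.05. None of the 8 probes with an exact symbol was called (0 of 8, against 17.1% of all probes tested), and 1 had an unadjusted limma p under 0.05. Of these probes 6 had a negative and 2 a positive mean, where 49.2% of all probes tested had a negative one. Their median log2 ratio was −0.01, beside 0.00 over all probes tested, and their medians on arrays 1 to 4 were −0.07, −0.01, 0.06 and 0.01.

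The 9 probes identified in other ways stand for only 4 genes, with several probes for PDIA4 and for HSPA5. All 9 had a negative mean, as did 49.2% of all probes tested. Of the 9, 3 were called, all lower, where 7.59% of all probes were called lower and 9.49% higher. The 3 were both HSPA5 probes and the HSP90B1 probe. With median centring 12 probes in all were called, 100% of them higher. With all 17 probes together 3 were called (17.6%), near the share over all probes. None of the 17 reached a 1.3-fold change with a call, a limit that 1.42% of all probes met. The plot of log2 ratios by probe shows how the arrays were placed.

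**Figure D1:**
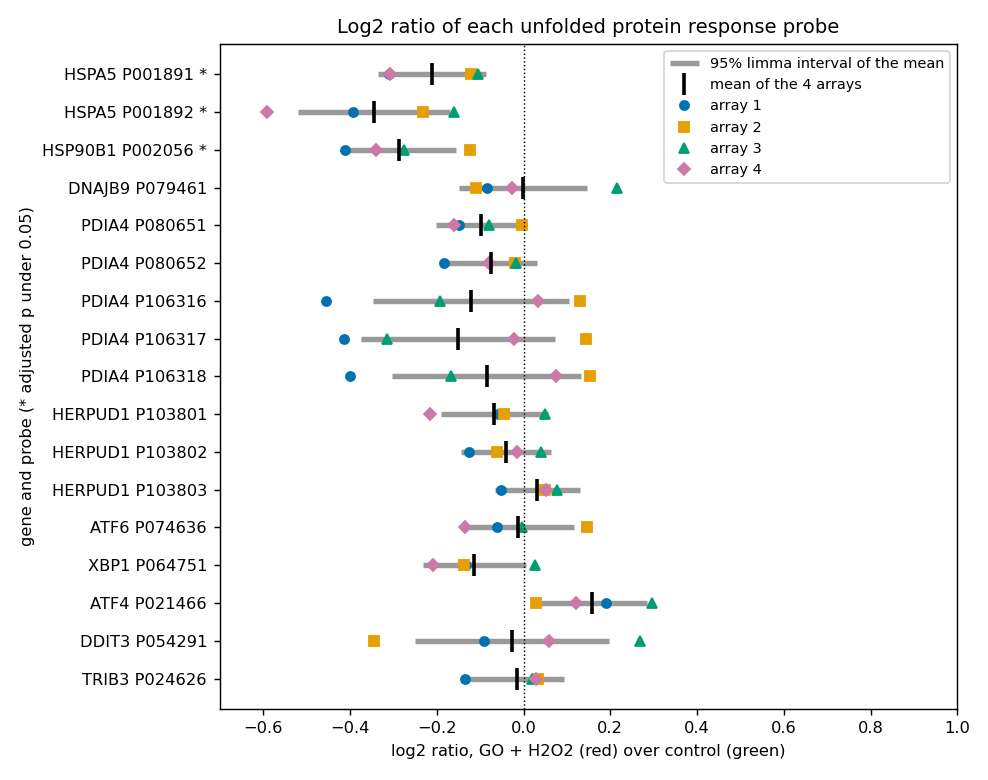
Log2 ratio of treated over control signal (x axis) for the 17 probes of the 10 genes (y axis), with 1 symbol per array, the mean of 4 arrays and its 95% limma interval. The HSPA5 and HSP90B1 probes lie below 0 on all 4 arrays, the ATF4 probe above 0 on all 4, and the DDIT3 probe on both sides.

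HSPA5 and HSP90B1, which encode chaperones of the ER lumen, were lower in treated cells, by 1.16- to 1.27-fold. HSPA5 encodes BiP, the Hsp70 chaperone of the ER lumen that also holds the sensors inactive. As scanned, probe A_69_P001892 read 17906, 13892, 12600 and 15919 in the control channel and 17739, 16501, 14397 and 12980 in the treated channel on arrays 1 to 4. After normalisation it had ratios of −0.39, −0.23, −0.16 and −0.59. The mean was −0.34 ± 0.19 (SD, n = 4 arrays, limma adjusted p = 0.0303), a 1.27-fold lower signal. After quantile normalisation of average signal between arrays, the log2 channel level was 14.06 ± 0.12 in control cells and 13.71 ± 0.13 in treated cells. At these levels the channels did not overlap: every treated value was below every control value. The scanned values of the channels did overlap.

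Probe A_69_P001891, at the end of the same coding sequence, read 24592, 19687, 16465 and 22648 in control and 26507, 25892, 19784 and 23183 in treated RNA as scanned. Its ratios after normalisation were −0.31, −0.12, −0.11 and −0.31. Its mean was −0.21 ± 0.11 (SD, n = 4 arrays, limma adjusted p = 0.0412), a 1.16-fold lower signal. The 2 probes share no bases, and both were lower on all 4 arrays. Their channel levels after the same normalisation also did not overlap.

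HSP90B1 encodes GRP94, the Hsp90 chaperone of the ER, which takes clients from BiP. Its probe (A_69_P002056, chr28:27300074-27300133) read 34347, 27403, 23780 and 27201 in control and 35216, 36718, 25669 and 27543 in treated RNA as scanned. After normalisation the ratios were −0.41, −0.12, −0.28 and −0.34. The mean was −0.29 ± 0.12 (SD, n = 4 arrays, limma adjusted p = 0.0244), a 1.22-fold lower signal. Its log2 level was 14.99 ± 0.03 in control and 14.70 ± 0.11 in treated cells, again without overlap.

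The plot of channel levels shows the normalised values. As scanned, red was the brighter channel on 2 of 4 arrays for A_69_P001892 and on all 4 for A_69_P001891 and HSP90B1, with mean scanned log2 ratios of 0.03, 0.20 and 0.15. Background correction and loess took away 0.38, 0.41 and 0.43 on average, the excess of red over green among probes of like brightness, so the lower levels are relative to those probes. Leaving out 1 array changed the calls. HSPA5 probe A_69_P001892 had adjusted p-values of 0.116, 0.0307, 0.0605 and 0.0937 without arrays 1, 2, 3 and 4. For A_69_P001891 they were 0.15, 0.0415, 0.0699 and 0.145, and for HSP90B1 0.102, 0.0172, 0.0691 and 0.1. With 3 arrays, then, only the set without array 2 kept these calls, and without arrays 1, 3 and 4 few probes were called on the array at all (2, 38 and 0). When loess was replaced by median centring, the mean ratios of A_69_P001892, A_69_P001891 and HSP90B1 were −0.26, −0.10 and −0.15, nearer to 0 than after loess, with adjusted p-values of 0.777, 0.904 and 0.867. By the methods' t-test, adjusted the same way, the p-values were 0.153, 0.148 and 0.119. The direction was negative for all 3 probes under all 16 alternatives, of which A_69_P001892 was called in 10, A_69_P001891 in 6 and HSP90B1 in 11.

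**Figure D2:**
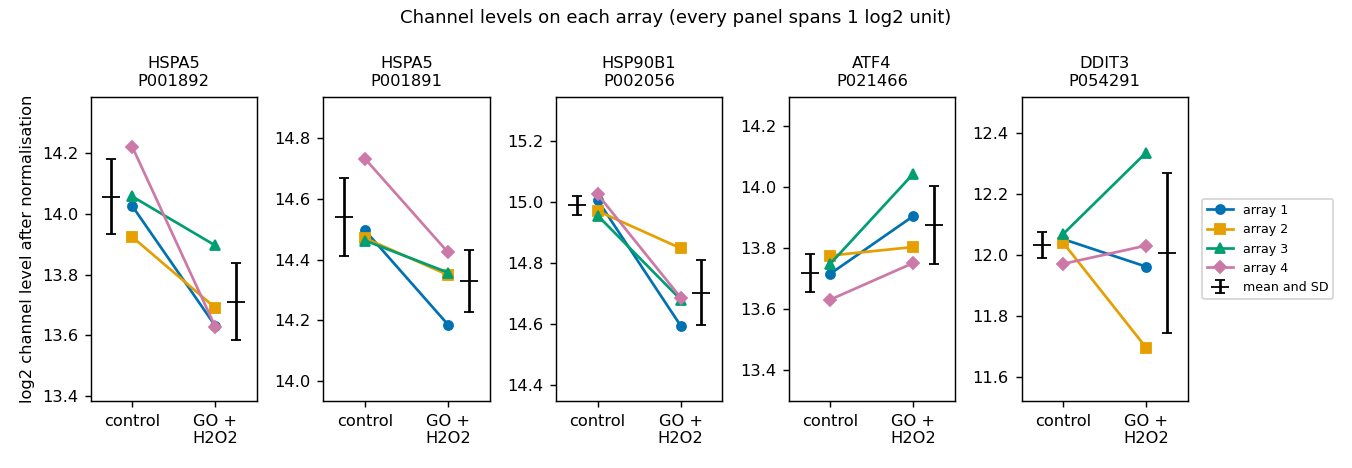
Log2 channel level after loess and quantile normalisation of average signal between arrays (y axis) in control and treated RNA (x axis) for 5 probes, with lines joining the channels of an array and the mean and SD beside them. Treated values lie below control values for HSPA5 and HSP90B1, whereas the ATF4 lines rise on all 4 arrays and the DDIT3 lines cross.

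DNAJB9 encodes ERdj4, a BiP cochaperone, and is a known XBP1 target. Its probe (chr4:66609776-66609835) read 799, 661, 464 and 627 in control and 852, 731, 647 and 660 in treated RNA as scanned. It had normalised ratios of −0.08, −0.11, 0.22 and −0.03. The mean was −0.00 ± 0.15 (SD, n = 4 arrays, adjusted p = 0.996). The 95% interval of the fold change was 0.903 to 1.11.

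PDIA4 encodes ERp72, a disulfide isomerase with CGHC active sites. Its 5 probes read between 483 and 1077 as scanned in control and between 448 and 895 in treated RNA. They had mean ratios from −0.15 to −0.08, and none was called (adjusted p from 0.158 to 0.534). They fell into 2 places in the transcript that behaved unlike each other. A_69_P080651 and A_69_P080652 share 59 bases and varied little, with SDs of 0.07 and 0.08. The ratios were −0.15, −0.00, −0.08 and −0.16 for the first and −0.18, −0.02, −0.02 and −0.08 for the second, negative on all 4 arrays. A_69_P106316, A_69_P106317 and A_69_P106318, nearer the transcript's start, overlap by 20 to 40 bases and had SDs of 0.26, 0.26 and 0.25. These 3 probes read −0.45, −0.41 and −0.40 on array 1, but 0.13, 0.14 and 0.15 on array 2. On array 3 they read −0.19, −0.31 and −0.17, and on array 4 0.03, −0.02 and 0.07. Probes of 1 place share their target bases and are not replicates.

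HERPUD1 encodes Herp, a membrane protein of ER-associated degradation that is induced by ATF6 and ATF4. Its 3 probes (chr3:9197703-9197811) overlap in the run ccaaggggcac, the 11 bases common to all 3. The run is shown because overlapping probes are not fully separate readings, although A_69_P103801 and A_69_P103803 share only these 11 bases. Probe A_69_P103801 read 23272, 18885, 16389 and 21246 in control and 29923, 26135, 21949 and 23128 in treated RNA as scanned. It had normalised ratios of −0.06, −0.05, 0.05 and −0.22, with a mean of −0.07 ± 0.11 (SD, n = 4 arrays, adjusted p = 0.38). Probe A_69_P103802 read 22817, 17358, 16978 and 16786 in control and 27916, 23640, 22606 and 20766 in treated RNA. Its ratios were −0.13, −0.06, 0.04 and −0.01, and the mean was −0.04 ± 0.07 (adjusted p = 0.532). Probe A_69_P103803 read 6420, 4983, 3392 and 5031 in control and 7579, 6821, 4400 and 6064 in treated RNA. Its ratios were −0.05, 0.05, 0.08 and 0.05, and the mean was 0.03 ± 0.06 (adjusted p = 0.605). The overlapping probes did not share a sign, and the array with the lowest ratio was array 4 for the first and array 1 for the others.

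Among the transcription factors, ATF6 is itself the membrane-bound sensor. Its probe, on sequence not placed on a chromosome, read 311, 243, 212 and 282 in control and 318, 289, 237 and 257 in treated RNA as scanned. It had normalised ratios of −0.06, 0.15, −0.00 and −0.13, with a mean of −0.01 ± 0.12 (SD, n = 4 arrays, adjusted p = 0.88). XBP1 makes its active factor only after IRE1 has spliced its mRNA. Its probe (chr8:7697982-7698041) read 1960, 1537, 1352 and 1700 in control and 2072, 1760, 1685 and 1645 in treated RNA as scanned, and it had normalised ratios of −0.13, −0.14, 0.03 and −0.21 and a mean of −0.11 ± 0.10 (SD, n = 4 arrays, adjusted p = 0.149). Both factors had control and treated levels that overlapped.

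ATF4 is the factor translated when eIF2alpha is phosphorylated, and its own mRNA can be induced. Its probe read 14451, 12515, 10194 and 10704 in control and 21455, 17795, 15946 and 14144 in treated RNA as scanned. It had normalised ratios of 0.19, 0.03, 0.30 and 0.12. It was the only one among the 8 exactly named probes that kept 1 sign across the 4 arrays, as 43.8% of all probes tested did. The mean was 0.16 ± 0.11 (SD, n = 4 arrays), a 1.12-fold higher signal with a 95% interval of 1.02 to 1.22. The limma adjusted p was 0.0797. Without array 2, whose ratio was the lowest, it was 0.0498, and the probe was then called. The channel levels overlapped: 13.72 ± 0.06 in control and 13.88 ± 0.13 in treated cells.

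DDIT3 encodes CHOP, the factor downstream of ATF4 that is linked to cell death. Its probe read 4826, 3864, 3136 and 3484 in control and 5469, 3959, 4647 and 4168 in treated RNA as scanned. It had the widest spread of the exactly named probes, with normalised ratios of −0.09, −0.34, 0.27 and 0.06 and a mean of −0.03 ± 0.26 (SD, n = 4 arrays, adjusted p = 0.858). The median SD over all probes was 0.0934. The control level varied by 0.04 (SD) and the treated level by 0.26, on the log2 scale. The 95% interval of the fold change, 0.841 to 1.15, takes in both a fall and a rise of that size.

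TRIB3 encodes a pseudokinase that is induced by ATF4 and CHOP and restrains them. Its probe read 452, 355, 266 and 280 in control and 446, 411, 297 and 280 in treated RNA as scanned. The normalised ratios were −0.14, 0.03, 0.02 and 0.03, with a mean of −0.01 ± 0.08 (SD, n = 4 arrays, adjusted p = 0.845). The probe spans 3068 bases of chromosome 22 and so crosses an intron. Array 1 stood apart from the other 3.

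The wider response was read through 103 further genes in 6 groups by role, of which 86 had a probe and 81 were tested at their brightest probe. Of these 13 were called (16%, against 17.1% of all probes), 5 higher and 8 lower. The mean was positive for 29 and negative for 52, with a median of −0.04, where 49.2% of all probes tested had a negative mean. Of the 13, none was called without array 1, 3 or 4 or with median centring (0 each), and 12 genes were called without array 2. The plot of the groups by role shows them.

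Among the sensors and their activators 1 of 7 tested genes was called (14.3%, against 17.1% of all probes). RTCB, the ligase that joins the spliced XBP1 mRNA, was lower at −0.22 ± 0.12 (SD, n = 4 arrays, limma adjusted p = 0.0403). Of its 5 probes 3 were called, but A_69_P021058 and A_69_P021059 among these overlap and are not separate readings. EIF2AK3, which encodes PERK, had −0.01 ± 0.10 (adjusted p = 0.92). ERN1, which encodes IRE1, had 1 probe that was not well above background on any array in either channel and was not tested.

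Among the kinases and phosphatases of eIF2alpha 1 of 10 was called (10%, against 17.1% of all probes). DNAJC3, the ER protein that restrains PERK, had ratios of −0.39, −0.13, −0.42 and −0.31 and was lower at −0.31 ± 0.13 (SD, n = 4 arrays, limma adjusted p = 0.0226). EIF2AK1, the haem-regulated kinase, had −0.10 ± 0.04 (adjusted p = 0.122), and EIF2AK4, the amino acid sensor GCN2, had −0.13 ± 0.20 (adjusted p = 0.245). EIF2AK2, the RNA-activated kinase PKR, had 0.04, 0.04, 0.90 and 0.14, a mean of 0.28 ± 0.42 (adjusted p = 0.208) set by array 3. PPP1R15A (GADD34), which undoes eIF2alpha phosphorylation, had 0.12 ± 0.19 (adjusted p = 0.266). All 5 of its probes had a positive mean, but they overlap heavily and are not separate readings.

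Of 18 tested targets and partners of ATF4 and CHOP, 3 were called (16.7%, against 17.1% of all probes). At their brightest probe all 3 were higher, where 9.49% of all probes were called higher. BBC3, the cell death gene PUMA, had ratios of 0.36, 0.10, 0.78 and 0.54, with a mean of 0.45 ± 0.29 (SD, n = 4 arrays, limma adjusted p = 0.0348). Each of its 5 heavily overlapping probes was called. ASNS, asparagine synthetase, had 0.59, 0.07, 0.48 and 0.22, with a mean of 0.34 ± 0.24 (SD, n = 4 arrays, adjusted p = 0.044). EIF4EBP1, a repressor of translation, was higher at 0.16 ± 0.05 (adjusted p = 0.0409). PSAT1 was not called at its brightest probe (−0.16 ± 0.10, adjusted p = 0.0712), but 1 of its 2 probes was called, and that one was lower. The list as a whole held 9 positive and 9 negative means, with a median of 0.02.

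In the ER chaperone group 2 of 17 were called (11.8%, against 17.1% of all probes), and 8 means were positive and 9 negative. UGGT1, which checks glycoprotein folding, was higher at 0.22 ± 0.09 (SD, n = 4 arrays, limma adjusted p = 0.0312). Its probe was dim, with 165, 197, 141 and 147 in control and 203, 224, 152 and 129 in treated RNA as scanned. The UGGT1 mean ranged from 0.18 to 0.39 under the processing alternatives. PPIB, the ER cyclophilin B, was lower at −0.24 ± 0.16 (adjusted p = 0.0466). Of 9 disulfide isomerases 2 were called (22.2%), both lower, where 7.59% of all probes were called lower. TMX1, a membrane-bound isomerase, had nearly the same ratio on each array (−0.26, −0.30, −0.28 and −0.30), with a mean of −0.29 ± 0.02 (adjusted p = 0.0149). PDIA5 had −0.24 ± 0.14 (adjusted p = 0.0392), with 1 of 3 probes called.

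Among 20 genes of ER-associated degradation and export 4 were called (20%, against 17.1% of all probes). SSR1, a subunit of the translocon-associated complex, was lower at −0.27 ± 0.08 (SD, n = 4 arrays, limma adjusted p = 0.0195). Both of its probes were called, but they overlap and are not separate readings. EDEM2, which prepares misfolded glycoproteins for degradation, was lower at −0.25 ± 0.09 (adjusted p = 0.0233). EDEM3, a relative of it, was higher at 0.23 ± 0.06 (adjusted p = 0.0216), but only 1 of its 3 probes was called, the others having means of 0.07 and 0.02. The called EDEM3 probe was dim, with 158, 150, 114 and 132 in control and 179, 177, 105 and 122 in treated RNA as scanned. The mean of this probe was 0.20 with median centring, 0.22 with no background correction and 0.53 on the signals processed by Agilent's software. VCP, the ATPase that extracts proteins from the ER membrane, was the fourth, named after its values were seen, at −0.22 ± 0.10 (adjusted p = 0.0332). In this group 16 of 20 means were negative, where 49.2% of all probes tested had a negative mean.

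**Figure D3:**
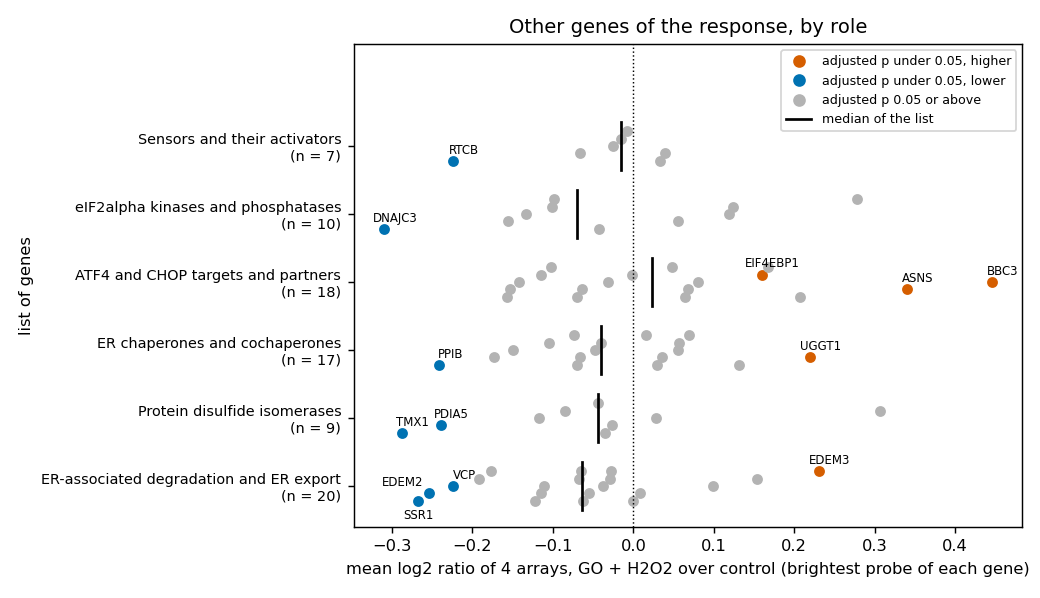
Mean log2 ratio of treated over control signal (x axis) of the 81 tested genes in 6 groups by role (y axis, number tested in parentheses), with called genes named and coloured by direction and black lines for group medians. The 3 called ATF4 and CHOP targets are to the right of 0, and the called isomerases, RTCB and DNAJC3 to the left.

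The plot of the processing alternatives shows the direction and the calls of HSPA5, HSP90B1 and ATF4 under each.

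**Figure D4:**
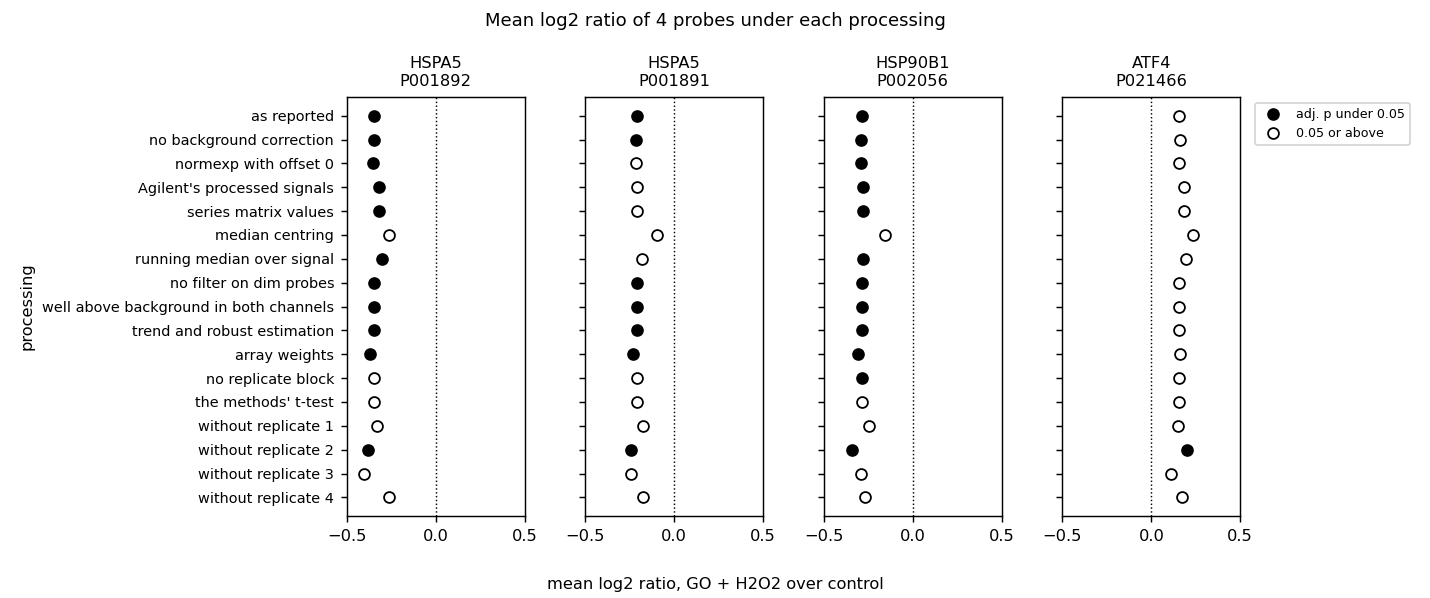
Mean log2 ratio of treated over control signal (x axis) of 4 probes under each processing (y axis), filled where the adjusted p was under 0.05. All points of HSPA5 and HSP90B1 lie below 0 and all points of ATF4 above 0, and the ATF4 point is filled without replicate 2 alone.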

How the data were processed

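RNA of treated and control equine satellite cells was hybridised on 4 two-colour Agilent horse arrays. The deposited intensities per spot were extracted by the authors with Agilent Feature Extraction 10.10.1.1, per the file headers. The deposited log10 ratios, also held in the authors' value table, are processed red over processed green, with a largest difference of 0 between both sources.

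Mean intensities were corrected with normexp (offset 50), normalised within arrays by loess with control spots at weight 0, and averaged per probe after outlier spots were left out (7 to 16 gene spots per array). Probes were kept where either channel was well above background on every array (24230 of 43603, 55.6%). The values tested were log2 ratios computed here from the deposited intensities. For channel levels, the average signal of both channels was also quantile-normalised between arrays, which leaves the ratios unchanged. The mean of 4 arrays was tested against 0, two-sided, with limma 3.58.1 in R 4.3.3 (lmFit, eBayes, Benjamini-Hochberg, threshold 0.05). The script was tested on simulated data. Between 54.9% and 61.3% of gene spots in green and 56.7% to 61.4% in red were well above background, and no gene spot was saturated (0 per array). Precision is limited by the number of arrays. No probe's level was compared with another's.

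Members, lists and tests were chosen with earlier results of these data known. Named genes were all member probes, at most 3 called genes per list by adjusted p at the brightest probe, and EIF2AK3, ERN1, EIF2AK1, EIF2AK2, EIF2AK4 and PPP1R15A. Gene symbols are those of the array annotation. HSPA5, HSP90B1, XBP1 and PDIA4 were matched through descriptions, HSP90B1 also through a RefSeq accession and XBP1 through a gene identifier. Coordinates are in EquCab1, per the file headers. Exons and UTRs were not assigned, and promoters and proteins were not analysed here. Alternatives were other background corrections, signals, normalisations, filters and variance models, array weights, unpaired channels, the methods' t-test and leaving out each array.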

Additional observations from a re-analysis of the deposited data

Results flagged for a closer look

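In 2 of 34 sets of 4 log2 ratios, 1 array lay far from the other 3, a distance that chance gives about 1 time in 20. For TRIB3 it was array 1, with a log2 ratio of −0.14 against 0.02 to 0.03 on the others. For EIF2AK2 it was array 3, with 0.90 against 0.04 to 0.14 on the others. A second EIF2AK2 probe read 0.88 on array 3 and the third read 0.39.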

How the results depend on the processing

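The count of called probes among the 8 exactly named ones was 0 under every alternative except without replicate 2, where it was 1 (ATF4), so it ranged from 0 to 1 when 1 array was left out. Beside the counts of 0, the number with an unadjusted p under 0.05 was 0 or 1. Their median log2 ratio ranged from −0.05 without replicate 3 to 0.01 without replicate 1. The 3 calls among the 9 other probes, a count added after seeing the data, became 0 with median centring, 1 with no replicate block (channels as unpaired samples), 0 by the methods' t-test, and 0 to 3 when 1 array was left out. In place of 13 genes of the wider response, 6 were called on the series matrix values and 6 on the signals processed by Agilent's software, 0 with median centring, 1 with no replicate block, 0 by the methods' t-test, and 0 to 12 when 1 array was left out. Over all probes 4137 calls became 12 with median centring, 594 with no replicate block, 5 by the methods' t-test (6930 unadjusted), and 0 to 3899 when 1 array was left out, with 6694 unadjusted at the count of 0 (without replicate 4). The share of calls that were higher was 55.6%, and 100% with median centring, 63.8% with no replicate block, 40% by the methods' t-test, 100% without replicate 1 and 89.5% without replicate 3. The causes were not tested. No other alternative moved a count beyond 1.5 times, and no called gene changed sign. Between 54.9% and 61.4% of gene spots were well above background, and ERN1 could not be tested for this reason.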
